A study of Mus musculus with 2 samples.

Results

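Binding of p300 was described along 5 stretches of the mouse genome in which the heart peak list holds runs of neighbouring peaks, and which are named here after Tns1, Rbpms, Igf2r, Bcl2l1 and Pim1, 5 genes that do not encode transcription factors. On build mm9 the windows are chromosome 1 from 73.9 to 74.2 Mb for Tns1, chromosome 8 from 34.85 to 35.2 Mb for Rbpms, chromosome 17 from 12.85 to 13 Mb for Igf2r, chromosome 2 from 152.55 to 152.7 Mb for Bcl2l1 and chromosome 17 from 29.5 to 29.7 Mb for Pim1. A peak belonged to a window when its midpoint lay inside it. This gave 44 of the 3597 heart peaks (10 at Tns1, 9 at Rbpms, 10 at Igf2r, 7 at Bcl2l1 and 8 at Pim1) and 2 of the 2786 midbrain peaks. The windows were chosen by the heart peaks themselves, each holding a run of at least 6, so the number, rank and heart reads of these peaks are given as a description and support nothing.

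The study set p300 chromatin immunoprecipitation with sequencing in heart beside that in midbrain, both from CD-1 mouse embryos at embryonic day 11.5. Each tissue is 1 library from a pool of about 150 embryos of both sexes, so no difference has a replicate check, and a value for a tissue is a value for its library. The same anti-p300 antibody was used for both, DNA of 300 to 500 bp was taken from a gel, and reads of 36 bp were made. The shared protocol names forebrain, midbrain and limb as the dissected tissues and does not name heart, and the tissue labels were not checked against marker genes, since no mm9 annotation was used here. Depth differed: 1303861 reads were aligned in heart and 5869671 in midbrain. A read is therefore worth 0.767 rpm in heart and 0.170 rpm in midbrain, where rpm is the read number scaled to 1000000 aligned reads.

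The protein p300 acetylates histones and serves transcription as a coactivator. It has no sequence preference of its own, is brought to DNA by transcription factors, and is found at many active enhancers. Enhancers of 1 gene often lie as a series of separate elements before, within and after that gene. At this stage the mouse heart has looped and beats, and its chambers are growing, with muscle, endocardial and outer epicardial layers.

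Of the named genes, Tns1 encodes tensin 1, a protein of focal adhesions that ties integrins to actin filaments, and Rbpms encodes an RNA-binding protein that regulates splicing in muscle cells. Igf2r encodes the receptor for insulin-like growth factor 2 and mannose 6-phosphate, which carries its ligand to lysosomes for breakdown and is expressed from the maternal allele in mice. Bcl2l1 encodes Bcl-xL, which blocks the mitochondrial route of apoptosis, and Pim1 encodes a serine/threonine kinase that favours cell survival and growth. Other genes lie close by. In the order of RefSeq genes on GRCm38.p6 the next protein-coding genes on either side are Tnp1 and Rufy4 for Tns1, Smim18 and Dctn6 for Rbpms, Cox4i2 and Tpx2 for Bcl2l1, and Fgd2 and Tmem217 for Pim1. Among the 3 genes on each side of these are also transcription genes: Id1, an inhibitor of bHLH transcription factors, and the forkhead factor Foxs1 near Bcl2l1, and Gtf2e2, a subunit of a general transcription factor, near Rbpms. Which gene a peak acts on was not analysed here.

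Sequences of the peaks are not shown, since the coordinates are on mm9 and the sequence tables used here are on GRCm38.p6. Promoters of the named genes are shown instead, as the targets that such peaks could act on, and to show how unlike one another they are in sequence. RefSeq promoters of 300 bases, with 250 before the start of the gene, were found for 4 of the 5 genes in 7 entries, and Rbpms had none in the table. The 3 below are the Bcl2l1 entries with motif matches and the Pim1 entry with the most CpGs. Capitals mark matches on either strand to motifs of factor families known from heart or brain: AGATAA for the zinc finger family of Gata4, CACTTAA for the homeobox factor NKX2-5, AGGTGTGA for T-box factors, CATCTG for the E-box of HAND factors, GGAATG for TEAD factors, TGACAG for MEIS factors, ACAAAG for SOX factors, ATGCAAAT for class III POU factors, and the CArG box of SRF and the MEF2 motif by name.
Bcl2l1 promoter entry 1, chr2:152831679-152831978, minus strand, GRCm38.p6: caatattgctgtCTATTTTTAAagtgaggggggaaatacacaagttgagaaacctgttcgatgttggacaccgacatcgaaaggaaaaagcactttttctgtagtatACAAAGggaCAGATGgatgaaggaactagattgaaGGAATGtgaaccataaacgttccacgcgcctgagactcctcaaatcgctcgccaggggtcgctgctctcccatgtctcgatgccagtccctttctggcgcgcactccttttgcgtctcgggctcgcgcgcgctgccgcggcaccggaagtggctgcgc
Bcl2l1 promoter entry 3, chr2:152828440-152828739, minus strand, GRCm38.p6: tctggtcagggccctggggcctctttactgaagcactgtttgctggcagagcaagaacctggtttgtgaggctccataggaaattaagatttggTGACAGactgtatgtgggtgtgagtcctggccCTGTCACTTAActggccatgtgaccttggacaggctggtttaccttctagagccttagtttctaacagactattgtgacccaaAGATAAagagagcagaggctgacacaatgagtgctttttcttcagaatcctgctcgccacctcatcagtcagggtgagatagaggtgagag
Pim1 promoter entry 1, chr17:29490535-29490834, plus strand, GRCm38.p6: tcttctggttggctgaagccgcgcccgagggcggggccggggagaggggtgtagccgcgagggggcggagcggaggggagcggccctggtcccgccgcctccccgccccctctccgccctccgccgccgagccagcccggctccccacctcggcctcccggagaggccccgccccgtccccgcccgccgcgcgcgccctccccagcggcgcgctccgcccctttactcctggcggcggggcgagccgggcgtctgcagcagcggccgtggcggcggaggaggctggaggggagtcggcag

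The first Bcl2l1 entry held 1 match each to the MEF2, SOX, HAND E-box and TEAD motifs. The other Bcl2l1 entry shown held 1 GATA match, 1 NKX2-5 match and 2 MEIS matches, of which 1 overlaps the NKX2-5 match. None of the capitals' motifs occurred in the Tns1 or Igf2r promoter, in the remaining Bcl2l1 entry or in either Pim1 entry. Most of these motifs are common: among the 32851 promoters that RefSeq lists, 11.18% hold the GATA motif, 17.15% the HAND E-box, 14.66% the TEAD motif, 19.18% the MEIS motif and 18.71% the SOX motif. The rarer ones were the MEF2 motif at 3.187%, the NKX2-5 motif at 2.411%, the class III POU motif at 1.735%, the CArG box at 1.629% and the T-box motif at 1.275%. The general E-box (CANNTG, which includes CATCTG) and the short NKX2-5 core (AAGTG, whose complement lies within CACTTAA) are not in capitals, since 72.31% and 46.38% of promoters hold them. The entries also varied in CpG number. The Pim1 entry shown holds 42 CpGs, the Tns1 promoter 37, the Igf2r promoter 34, the Bcl2l1 entries 22, 14 and 1, and the other Pim1 entry 5, beside a median of 7 and an upper quartile of 20 over all promoters.

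The layout of the runs came before their reads. Linking heart peaks whose midpoints lie within 50 kb gave 23 runs of at least 6 peaks in the heart list, and 5 of them hold the peaks described here. The Tns1 and Igf2r runs each held 10 peaks, joint second after a run of 14, the Rbpms run held 9, the Pim1 run 8 and the Bcl2l1 run 6. Just inside the limit lay 13 runs of 6 peaks, the Bcl2l1 run among them, and just outside it 23 runs of 5 peaks. The seventh peak of the Bcl2l1 window, at chr2:152560481-152561190, lies 53.5 kb from the next midpoint and so stands outside that run. It pairs with a heart peak beyond the window edge at chr2:152533297-152534333, 27.0 kb away, which held 11 heart and 8 midbrain reads. The nearest heart peaks outside the other windows were 162 kb or farther from the outermost peaks within.

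Spacing differed between the runs more than their peak numbers did. The Bcl2l1 run packed its 6 peaks into 32.9 kb (18.2 peaks per 100 kb), the Igf2r run its 10 into 70.0 kb (14.3 per 100 kb) and the Pim1 run its 8 into 60.5 kb (13.2 per 100 kb). The Tns1 run spread 10 peaks over 163 kb (6.12 per 100 kb) and the Rbpms run 9 peaks over 212 kb (4.25 per 100 kb). Dense and open runs are thus both present, as the coverage tracks show. Peaks under 1 kb apart occurred at Igf2r (2 gaps), Bcl2l1 (2 gaps) and Pim1 (1 gap), and at neither Tns1 nor Rbpms. Joining such close peaks left 8 peaks in the Igf2r run, 4 in the Bcl2l1 run and 7 in the Pim1 run. The open runs depend on the linking distance, and within 25 kb the longest chain held 6 peaks at Tns1 and 4 at Rbpms.

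**Figure D1:**
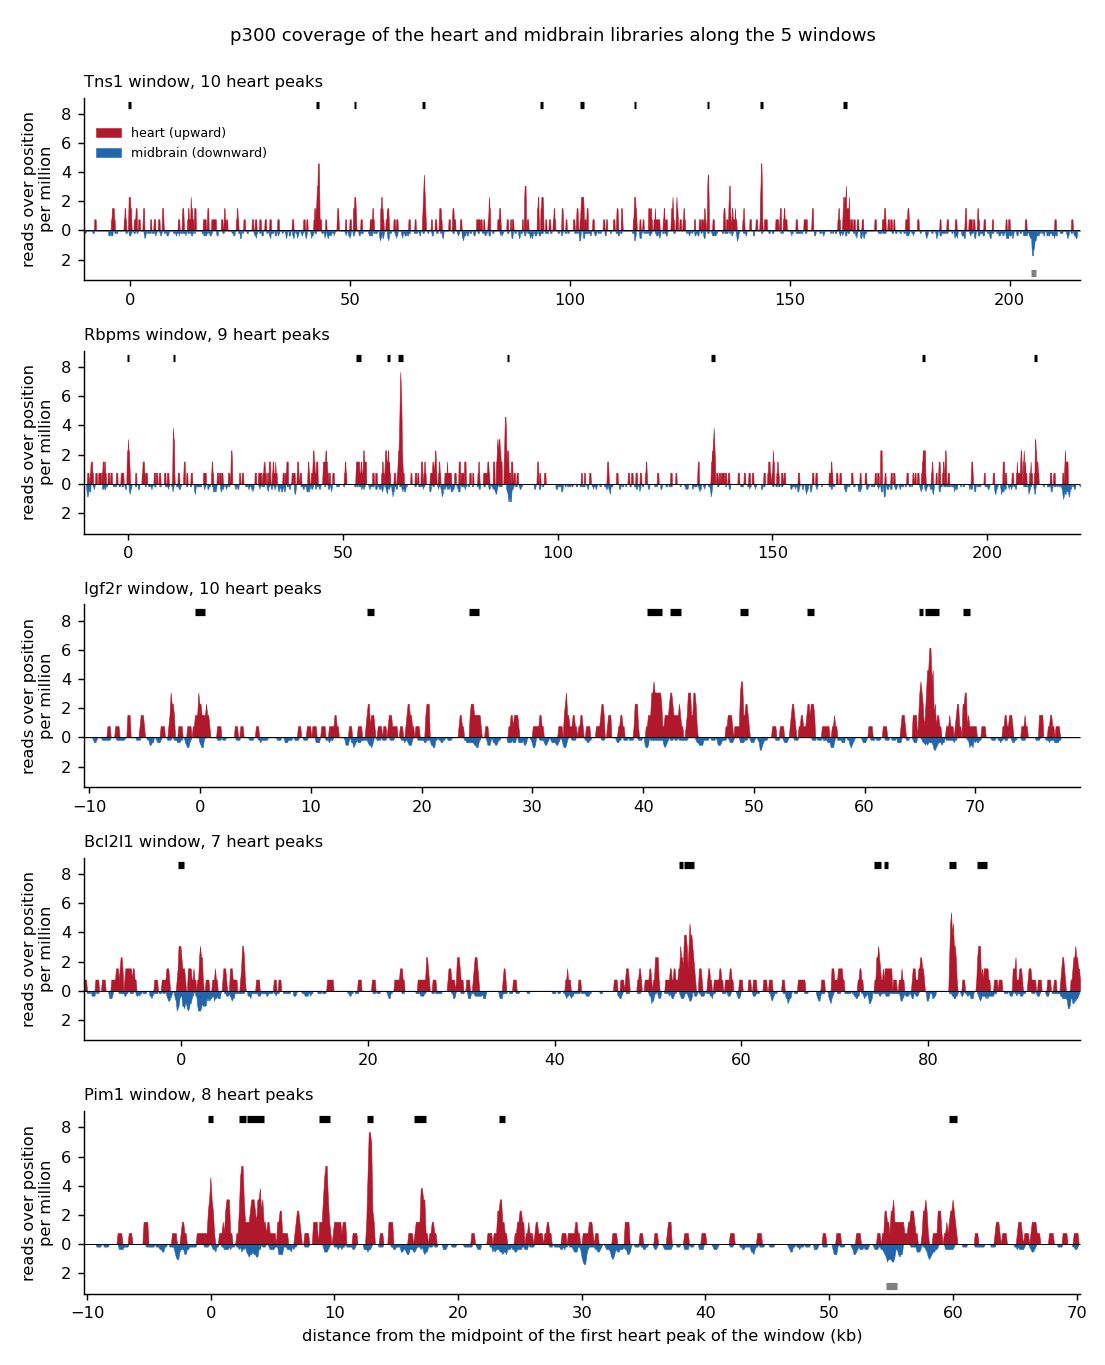
Library-scaled coverage from the deposited tracks (reads over each position, scaled to 1000000 aligned reads) along the 5 windows, heart drawn upward and midbrain downward, against distance in kb from the midpoint of the first heart peak. Black bars mark the 44 heart peaks and grey bars the 2 midbrain peaks; the tallest heart summits, at 7.67 on this scale, lie in the Rbpms and Pim1 windows.

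No heart peak of the 5 windows overlapped a midbrain peak. This 0 of 44 (exact Clopper-Pearson 95% interval 0 to 8.04%) stands beside 4.28% of all 3597 heart peaks, a background share that lies inside the interval, and beside 8 of 127 peaks (6.30%) in the 18 other runs of at least 6 heart peaks. Distance to the nearest midbrain peak set the windows apart. It was 1980 to 2049 kb for the Igf2r peaks, 744 to 830 kb for the Bcl2l1 peaks, 219 to 431 kb for the Rbpms peaks, 42.8 to 163 kb for the Tns1 peaks and 4.94 to 55.0 kb for the Pim1 peaks. A midbrain peak lay inside the run span at Pim1 alone, and 10 of the 18 other runs had none inside either.

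The reads of both libraries were then counted at each peak. Over the 44 peaks the heart library had 330 reads and the midbrain library 145, which is 7.71 rpm per kb of peak in heart and 0.752 rpm per kb in midbrain and a heart over midbrain ratio of 10.2 (exact conditional 95% interval 8.40 to 12.5). The peaks had been listed from these heart reads, so an excess of heart reads follows in part from the listing. The ratio was 7.83 (interval 7.02 to 8.73) over the 127 peaks of the other runs and 7.96 (interval 7.79 to 8.13) over all heart peaks. Heart density was 7.89 rpm per kb in the other runs and 7.10 over all heart peaks, and midbrain density 1.01 and 0.892. Midbrain density was thus lowest at the 44 peaks, while their heart density lay between those of the comparison sets. The ratio depends on both libraries. It could differ through the share of cells with bound p300 or through the p300 per cell, in either tissue. In whole tissue these cannot be told apart. Intervals cover counting error only, since each tissue has 1 library and variation between pools is not measured. In addition, no position and strand repeats in either library as deposited, and PCR copies of a molecule cannot be recognised here beyond a shared position.

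Peak by peak, 42 of the 44 had at least 4 times as many library-scaled reads in heart as in midbrain, with a midbrain count of 0 set to the floor of 3 reads (0.511 rpm). Over all heart peaks 88.3% reached this fold, and over the other runs 86.6%, so the members' count lies near the background and is no result about them. The exceptions were the third Igf2r peak at 3.86 (interval 1.07 to 13.4) and the first Bcl2l1 peak at 3.94 (interval 1.22 to 12.4). The lower bound of the ratio was above 1 at 42 of the 44 as well, beside 90% of all heart peaks. There the exceptions were the sixth Rbpms peak, with 3 heart and 2 midbrain reads, and Bcl2l1 peak 5, with 3 reads in each library. A fold of 8 was reached by 28 of the 44 and by 54.2% of all heart peaks.

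**Figure D2:**
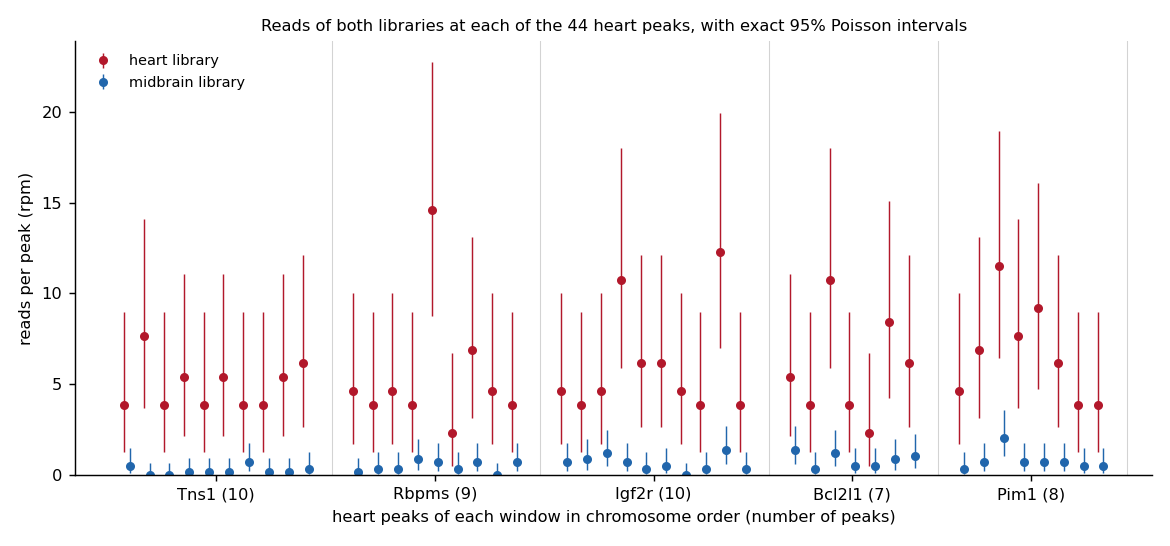
Reads at each of the 44 heart peaks in rpm, heart in red and midbrain in blue, in chromosome order within each window; points are the counts scaled to the library and bars exact 95% Poisson intervals for counting error. Rbpms peak 5 has the most heart reads at 14.6 rpm, and no midbrain value exceeds 2.04 rpm.

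At Tns1, which encodes the focal adhesion protein, the 10 peaks were even in heart and nearly empty in midbrain. Their heart density of 7.29 rpm per kb was near the 7.10 of all heart peaks, and their midbrain density was 0.354 against 0.892. Along the chromosome they held 5, 10, 5, 7, 5, 7, 5, 5, 7 and 8 heart reads, and 3, 0, 0, 1, 1, 1, 4, 1, 1 and 2 midbrain reads. Every heart count in rpm was above the midbrain one, although at 5 heart reads a single peak is known only between 1.25 and 8.95 rpm. The leading peak by reads, rank and lower bound was the second, at chr1:73995011-73995641 (rank 92, where 1 is the best), with 7.67 rpm in heart (exact Poisson interval 3.68 to 14.1) and no midbrain read. Set against the floor of 3 midbrain reads the fold there was 15.0, and the exact lower bound of the ratio was 10.1. The most midbrain reads of the window were in the seventh peak, at chr1:74067115-74067718, with 5 heart and 4 midbrain reads and a ratio of 5.63 (interval 1.21 to 28.4). Summed over the 10 peaks the ratio was 20.6 (interval 11.4 to 39.7), from 64 heart and 14 midbrain reads. With peaks of rank 1 to 2000 only it was 35.1 (interval 13.8 to 114). Ranks come from the heart list, so this choice of peaks is not independent of the heart reads. The same limit gave 13.5 (interval 7.91 to 24.04) at Igf2r and 9.0 (interval 5.72 to 14.5) at Pim1. At Bcl2l1 it gave 6.93 (interval 4.12 to 11.8), just below the 7.02 over all peaks of that window. The first Tns1 peak had its 5 heart reads on the plus strand alone. At 42 of the 44 peaks (95.5%) heart reads came from both strands, beside 94.7% of all heart peaks and 95.3% in the other runs.

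A midbrain peak of the opposite kind lay in the same window. It stands at chr1:74157381-74158578 (midbrain rank 1152), 42.8 kb after the last Tns1 heart peak, and held 0 heart and 23 midbrain reads. That is at most 2.83 rpm in heart (upper Poisson bound) and 3.92 rpm in midbrain (interval 2.48 to 5.88). The upper bound of its heart over midbrain ratio was 0.783, a value of a peak listed from midbrain reads.

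At Rbpms, which encodes the splicing regulator, 1 peak stood above the others. The 9 peaks held 6, 5, 6, 5, 19, 3, 9, 6 and 5 heart reads, and 1, 2, 2, 5, 4, 2, 4, 0 and 4 midbrain reads. The fifth, at chr8:35015847-35017071, took 29.7% of the heart reads of the 9 peaks and has rank 13, the best of the 44. It held 14.6 rpm in heart (interval 8.77 to 22.8) and 0.681 rpm in midbrain (interval 0.186 to 1.74), a ratio of 21.4 (interval 7.11 to 86.4). The peak just before it, 1.95 kb away at chr8:35013146-35013899, had the most midbrain reads of the window, with 5 reads in each library and a ratio of 4.50 (interval 1.04 to 19.6). Listed peaks with 19 and 5 heart reads thus lay side by side. Their heart intervals just meet, at 8.77 to 22.8 rpm and 1.25 to 8.95 rpm. The summed ratio was 12.0 (interval 7.40 to 20.1), from 64 heart and 24 midbrain reads, 10.1 (interval 5.86 to 18.1) without peak 5, and 20.01 (interval 9.56 to 46.9) with peaks of rank 1 to 2000 only. The third peak, rank 3590 of 3597, stands almost last in the heart list.

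At Igf2r, the growth factor receptor gene, 2 wide peaks held the most heart reads of the run. The 10 peaks held 6, 5, 6, 14, 8, 8, 6, 5, 16 and 5 heart reads, and 4, 5, 7, 4, 2, 3, 0, 2, 8 and 2 midbrain reads. These are the fourth and ninth peaks, each followed or preceded by a neighbour less than 1 kb away. They are also the widest of the run, at 1300 and 1269 bp, so their counts depend on width. The highest heart coverage of the fourth, 5 overlapping reads, equalled that of the sixth and eighth, while the ninth reached 8. The ninth, at chr17:12983449-12984717 (rank 55), held 12.3 rpm in heart (interval 7.01 to 19.9) and 1.36 rpm in midbrain (interval 0.588 to 2.69), a ratio of 9.0 (interval 3.64 to 24.3), and it also had the most midbrain reads of the run. The highest lower bound, 5.30, belonged to the seventh peak at chr17:12972786-12973382, with 6 heart reads and no midbrain read. Against the floor its fold was 9.0. At the first 3 peaks heart and midbrain reads before scaling were 6 and 4, 5 and 5, and 6 and 7, and the ratios after scaling were between 3.86 and 6.75. Summed, the ratio was 9.61 (interval 6.43 to 14.6), from 79 heart and 37 midbrain reads.

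At Bcl2l1, the gene of the anti-apoptotic Bcl-xL, midbrain reads were present at every peak, as they were at Pim1. Such reads are common, since only 11.6% of all heart peaks had none. The 7 peaks held 7, 5, 14, 5, 3, 11 and 8 heart reads, and 8, 2, 7, 3, 3, 5 and 6 midbrain reads. The third, at chr2:152614684-152615814 (rank 82), led by reads, rank and lower bound. It held 10.7 rpm in heart (interval 5.87 to 18.02) and 1.19 rpm in midbrain (interval 0.479 to 2.46), a ratio of 9.0 (interval 3.40 to 26.4). The first peak, the one outside the run, had the most midbrain reads, with 7 heart and 8 midbrain reads. The summed ratio of 7.02 (interval 4.48 to 11.1), from 53 heart and 34 midbrain reads, was the lowest of the 5 windows. This sum includes the first peak, so it is a value of the window and not of the run, and the run alone was not summed. The interval of the Bcl2l1 window does not meet that of Tns1 as counted, but the 2 intervals meet under 3 alternatives. With reads moved by 150 bp the upper bound at Bcl2l1 was 10.8 and the lower bound at Tns1 9.81. With 600 bp around each midpoint these bounds were 12.7 at Bcl2l1 and 10.9 at Tns1, and without the peak with the most heart reads of each window 11.05 at Bcl2l1 and 9.51 at Tns1. The intervals of Rbpms, Igf2r and Pim1 overlap those of both.

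At Pim1, the survival kinase gene, the heart peaks ranked best as a group. The 8 peaks held 6, 9, 15, 10, 12, 8, 5 and 5 heart reads, and 2, 4, 12, 4, 4, 4, 3 and 3 midbrain reads. Their median rank was 526, against a median of 1231 over the 44 peaks, 1481 over the other runs and 1799 over all heart peaks, and 4 of the 8 were among the first 500. The third peak, at chr17:29574429-29575872, had the most reads of both libraries, with 11.5 rpm in heart (interval 6.44 to 18.97) and 2.04 rpm in midbrain (interval 1.06 to 3.57) and a ratio of 5.63 (interval 2.46 to 13.2). The narrower peak 5, at chr17:29584132-29584667, had the best rank, 24, and the highest lower bound, with 9.20 rpm in heart (interval 4.76 to 16.1) and 0.681 rpm in midbrain and a ratio of 13.5 (interval 4.09 to 57.5). Heart coverage there reached 10 overlapping reads, as at Rbpms peak 5. Read number and rank therefore pick different peaks in this run. The summed ratio was 8.75 (interval 5.78 to 13.5), from 70 heart and 36 midbrain reads.

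The Pim1 run also enclosed a midbrain peak, at chr17:29626149-29627003 (midbrain rank 1341), which lies 4.94 kb from the eighth heart peak. It held 5 heart and 18 midbrain reads, or 3.83 rpm in heart (interval 1.25 to 8.95) and 3.07 rpm in midbrain (interval 1.82 to 4.85). The ratio of 1.25 (interval 0.363 to 3.49) includes 1, so at this depth no difference between the libraries was detectable there, although the region is on the midbrain list and overlaps no heart peak.

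Among themselves the 44 peaks ranged from 317 to 1444 bp in width, from 3 to 19 in heart reads and from 13 to 3590 in rank. Median width was 694 bp, against 647 bp in the other runs and 662 bp over all heart peaks, and the median heart count was 6 reads in each of the 3 sets. At least 10 heart reads were held by 9 of the 44 (20.5%), by 21.3% of the peaks of the other runs and by 8.67% of all heart peaks. By rank, 12 of the 44 (27.3%) were among the first 500, beside 28.3% in the other runs and 13.9% over the list. No midbrain read was found at 4 of the 44 (9.09%), beside 11.6% of all heart peaks.

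The heart list was deposited apart from the midbrain one, and no source used here says that midbrain reads took part in it, so their density at these peaks can be set against nearby sequence. Over the 44 peaks midbrain reads were 1.78 times as dense as in flanks 5 to 10 kb away (interval 1.48 to 2.13), beside 1.93 (interval 1.75 to 2.12) in the other runs and 1.95 (interval 1.91 to 1.98) at all heart peaks. By window it was 2.14 (interval 1.43 to 3.12) at Bcl2l1, 1.92 (interval 1.29 to 2.78) at Igf2r and 1.88 (interval 1.27 to 2.72) at Pim1, with lower bounds above 1. At Rbpms it was 1.45 (interval 0.909 to 2.22), and 1.88 (interval 1.15 to 2.97) with flanks 2 to 5 kb away, and at Tns1 1.12 (interval 0.596 to 1.93). An excess of midbrain reads at the Tns1 heart peaks was thus not detectable at this depth, and the intervals of all 5 windows overlap. Heart reads were 7.35 times as dense at the 44 peaks as in the flanks (interval 6.35 to 8.5), which follows from how the peaks were listed, and 10.7 times over all heart peaks. At the peaks themselves heart density was 7.71 rpm per kb over the 44 and 7.10 over all heart peaks. The lower value of the 44 thus goes with flanks richer in heart reads, with 431 reads in 315 kb against 28553 in 33085 kb.

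Heart reads were also in excess between the peaks. In the 1115 kb of the 5 windows outside every listed peak, heart reads stood at 0.859 rpm per kb and midbrain reads at 0.405 rpm per kb, a ratio of 2.12 (interval 1.98 to 2.27). Outside listed peaks on chromosomes 1 to 19 the ratio was 0.999 (interval 0.997 to 1.001), with 0.383 rpm per kb in each library, a length that includes assembly gaps. Each window showed it: 2.91 (interval 2.43 to 3.47) at Igf2r, 2.09 (interval 1.85 to 2.36) at Rbpms, 2.02 (interval 1.69 to 2.40) at Bcl2l1, 1.97 (interval 1.67 to 2.33) at Pim1 and 1.92 (interval 1.65 to 2.23) at Tns1. The higher side was the heart library, at 0.675 to 1.13 rpm per kb, while midbrain stood at 0.351 to 0.496 rpm per kb. This was not particular to these windows: between the peaks of the 18 other runs the ratio was 2.01 (interval 1.90 to 2.13), with single runs from 1.25 to 3.60 and a lower bound above 1 in 17 of 18. Within the span of the 5 member runs it was 2.44 (interval 2.21 to 2.68). Runs are defined by peaks of the same heart library, so these ratios are not independent of the choice of windows.

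**Figure D3:**
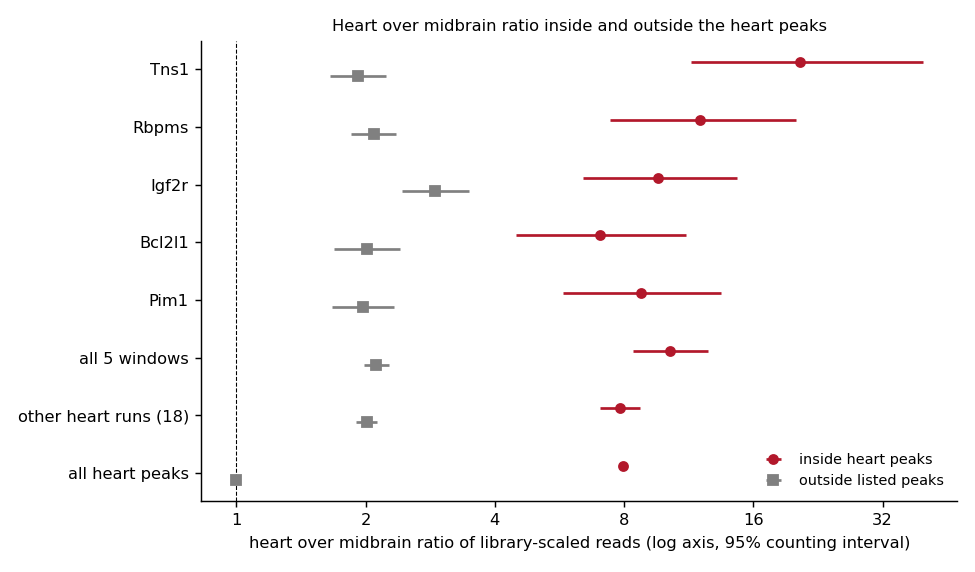
Heart over midbrain ratio of library-scaled reads on a log axis with exact conditional 95% intervals, inside heart peaks (circles) and outside listed peaks (squares), for each window, all 5 windows, the 18 other runs and all heart peaks; squares cover the whole window for the 5 windows, the run spans for the other runs, and chromosomes 1 to 19 in the last row. Inside peaks the windows lie between 7.02 and 20.6, and outside them between 1.92 and 2.91, above the 0.999 of the chromosomes.

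Beyond 5 kb the excess between peaks declined with distance and was still present at 20 to 50 kb. From the edge of the 44 peaks, heart reads stood at 1.30 rpm per kb within 1 kb and midbrain reads at 0.532, a ratio of 2.45 (interval 1.97 to 3.03). At 2 to 5 kb the ratio was 2.87 (interval 2.43 to 3.39), at 5 to 10 kb 2.31 (interval 1.96 to 2.71) and at 10 to 20 kb 1.98 (interval 1.68 to 2.32). At 20 to 50 kb heart reads were still at 0.692 rpm per kb and midbrain reads at 0.407, a ratio of 1.70 (interval 1.48 to 1.94). The other runs gave 2.21 (interval 1.96 to 2.48) within 1 kb and 1.49 (interval 1.38 to 1.61) at 20 to 50 kb. Around the 1989 heart peaks with no other heart peak within 50 kb the same distances gave 1.61 (interval 1.56 to 1.66) and 1.23 (interval 1.22 to 1.24). In both distance classes the intervals of the 5 windows and of the other runs lie above those of the lone peaks. Lone peaks were defined by the absence of other heart peaks within 50 kb and runs by their presence. This order therefore follows in part from the choice of peaks. These distance classes were set after the tracks had been seen, and positions near several peaks were counted once, by the nearest.

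**Figure D4:**
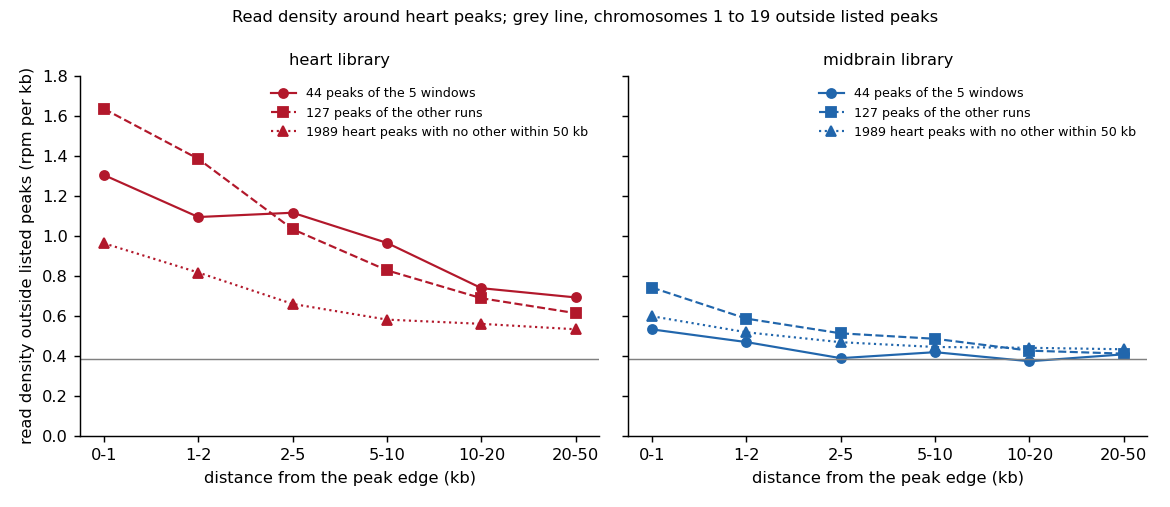
Read density outside listed peaks in rpm per kb by distance from the nearest heart peak edge, heart library on the left and midbrain library on the right, for the 44 peaks of the 5 windows, the 127 peaks of the other runs and 1989 peaks with no other within 50 kb; the grey line is chromosomes 1 to 19 outside peaks. Heart density around the 44 peaks lies between 0.692 and 1.30 rpm per kb, and midbrain density between 0.373 and 0.532.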

How the data were processed

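Per the file headers and the submitters' notes, the deposited files of both tissues are on mm9. In the aligned read files the authors give 1 read per line, so that read counts are unscaled. Lines are 300 bp long except 24 in heart and 48 in midbrain. No position and strand repeats, so the counts and library totals hold at most 1 read per position and strand. The coverage files that the authors deposited hold signal in 25 bp steps, unscaled and, by their headers, from reads extended to 300 bp. The peak lists that the authors deposited give a rank without a score. The word blat occurs in the heart track names, per the file headers. For midbrain no aligner, and for neither tissue a peak caller, threshold or control, is given in the sources used here.

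Values were computed with Python 3.11.15, with scipy 1.17.1, numpy 2.4.6 and pandas 2.3.3, and plotted with matplotlib 3.10.9. Reads were placed by their 5 prime ends moved by 23 bp in heart and 35 bp in midbrain, from strand offsets of 46 and 70 bp. Offsets were searched between 46 and 500 bp, so the heart value lies at the limit of the search. Counts were divided by the library's total of aligned reads. Ratios carry exact conditional binomial, shares Clopper-Pearson and single counts Poisson 95% intervals, and the code was tested on simulated data. With 1 library per tissue there is no test between tissues and no p-value.

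The windows, genes and lists were chosen with earlier results of these data known. In each window the text names the peaks with the most heart reads, the best rank, the highest lower bound of the ratio and the most midbrain reads, and every midbrain peak. Any other peak given by position was picked with its values in view. A planned count of motifs within peaks, a marker check and a list of related genes needed an mm9 genome or annotation and were not analysed here. Neighbours of Igf2r are not reported here.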

Additional observations from a re-analysis of the deposited data

How the results depend on the processing

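Of 94 alternatives for 25 results, 88 gave values inside the reported interval, or counts within 1.5 times the reported one. None turned a direction, which says little where intervals are wide, and 6 moved further. The 6 are numbers of peaks in a run. Linking within 25 kb left 6 at Tns1 and 4 at Rbpms. Peaks of rank 1 to 2000 alone left 5 at Tns1, 2 at Rbpms, 6 at Igf2r and 3 at Bcl2l1, since fewer peaks remain.

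The ratio over all 44 peaks stayed between 9.27 (coverage in place of reads) and 11.9 (rank 1 to 2000), and outside listed peaks between 2.08 and 2.11. Overlap with midbrain peaks stayed at 0 under all 3 other rules. No paired analysis was possible because each tissue has 1 library. The motif counts within peaks were not run, for want of an mm9 genome. A heart peak rests on 3 to 19 heart reads, which limits every ratio of a single peak.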

Other observations

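The deposited coverage was also searched for stretches with at least 5 overlapping heart reads, a limit set after the tracks had been seen. The 5 windows held 22 such stretches, and 20 of them touched a listed heart peak. On chromosomes 1 to 19 and X, 1230 of 2428 stretches (50.7%) did. The windows were chosen for their many listed heart peaks, so the higher share follows from the choice and nothing is read from it.

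Of the 2 stretches in no listed peak, 1 lay in the Igf2r window at chr17:12861938-12862212, with up to 6 heart and 3 midbrain reads over a position. The other lay in the Rbpms window at chr8:35040663-35040962, with up to 6 heart reads over a position and no midbrain read, and it ends 329 bp before the sixth Rbpms peak. That listed peak, at chr8:35041292-35041608, held 3 heart reads, all on the minus strand. From chr8:35040363 to 35041608, a span set after the values had been seen that takes in both, there were 12 heart reads, 7 on the plus and 5 on the minus strand, and 6 midbrain reads. Whether the stretch and the listed peak are 1 site was not tested. Within the listed peak heart coverage reached 3 overlapping reads and midbrain coverage 7, or 2.30 in heart and 1.19 in midbrain scaled to 1000000 aligned reads.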
